A study of Macaca mulatta with 16 samples.

Results

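Acetylcholine receptor and endplate genes were followed across 4 kinds of extraocular muscle RNA from adult rhesus macaques. The members were all probe sets whose platform gene symbol was CHRNA1, CHRNB1, CHRND, CHRNE, CHRNG, RAPSN, MUSK, AGRN or ACHE. They came to 17 of the 22283 probe sets of the human array type U133A, covering all 9 genes, and 1 of the 22645 probe sets of U133B, for MUSK. The genes were chosen by name and not by their values. The study sampled the outer orbital layer and the inner global layer of the muscles that move the eye, both taken by microdissection. It also sampled lateral rectus and medial rectus as whole muscles, which turn the eye outwards and inwards. Each group was measured with 2 arrays on each of the 2 array types, 16 arrays in all, and this number limits the precision of every value. The labels give no treatment, sex or exact age, do not say from which eye muscle the layers were taken, and tie no array to an animal. P-values therefore measure only the spread between these arrays, and those between microdissected layers may be too small.

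The muscle acetylcholine receptor is the ion channel through which a nerve ending excites a muscle fibre. It is built from alpha, beta, delta and either the fetal gamma or the adult epsilon subunit, and in most adult muscles epsilon has taken the place of gamma. Extraocular muscle is known for fibres with many small contacts beside fibres with a compact endplate, and for keeping gamma in the adult. At the contact, the nerve releases agrin, which acts through LRP4 on the kinase MuSK, and rapsyn then gathers the receptors, while acetylcholinesterase ends the signal by breaking down acetylcholine.

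Values are intensities, in the units the authors scaled each array to, and those below 146.487 units on U133A or 218.465 on U133B, called the floor here, were raised to it before any test. Of the arrays of U133A, replicate 1 of the orbital layer has conflicting labels, orbital in its title and global in its source name. It was grouped by title, and member differences and list calls that rest on this array were also computed without it. On U133B, the source name of global layer replicate 1 names layers without saying which. RNA and cell type measures on U133A differed between the groups. For ACTB, beta-actin, the 3' over 5' signal ratio lay between 2.84 and 5.87 on layer arrays and between 0.716 and 1.04 on whole muscle arrays. The orbital arrays gave 5.30 and 5.87 and the global arrays 2.84 and 2.88. Median intensities were 476 to 588 on layer arrays and 788 to 852 on whole muscle arrays, and 22.8% to 26.6% against 13.1% to 16.1% of probe sets lay at the floor. Summed markers of skeletal muscle fibre, 7 of 7 measured and none at the floor on any array, were 492900 to 535500 on orbital, 611700 to 627900 on global and 654600 to 840900 on whole muscle arrays. Summed Schwann cell markers, 3 of 6 measured with S100B at the floor on 7 arrays, were 8076 to 9467 in the layers and 8898 to 13780 in whole muscle. Summed smooth muscle and pericyte markers, 4 of 4, were 33470 to 37320 in the layers and 14430 to 25800 in whole muscle, and summed immune cell markers, 3 of 4, were 2536 to 4174 and 4969 to 6925. On U133B the order was the other way for smooth muscle and pericyte markers (5286 to 6477 in the layers, 6953 to 11170 in whole muscle) and for TTN, the muscle fibre marker measured there (9662 to 19410 and 4917 to 7498). Between the orbital and the global layer, summed endothelial markers were 12310 to 12560 and 15930 to 18990, and summed fibroblast markers 212300 to 242100 and 179700 to 182900, on U133A. Summed adipocyte markers there, 3 of 3 with ADIPOQ at the floor on 5 arrays and PLIN1 on 4, were 1044 to 2135 and 3329 to 6583. Between the recti, HBB, the red blood cell marker measured on U133A, was 25640 to 32870 in lateral and 8909 to 12870 in medial rectus. The part of these measures in the results below was not tested.

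The alpha subunit, CHRNA1, carries much of the acetylcholine binding site. Its brighter probe set, 206633_at, read 2748 and 2494 on the orbital arrays, 2080 and 2056 on the global arrays, 3332 and 3637 on the lateral rectus arrays and 3828 and 3824 on the medial rectus arrays. The 4 groups did not overlap, and their order from high to low was medial rectus, lateral rectus, orbital layer and global layer. Its other probe set, 211039_at, read 538 and 354, 726 and 348, 1092 and 1952, and 992 and 1149 in the order orbital, global, lateral, medial. Here the layers overlapped each other and so did both recti, and all layer arrays lay below all whole muscle arrays. The 2 probe sets thus placed orbital and global layer differently.

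The beta subunit, CHRNB1, is shared by the fetal and the adult receptor. Its probe set 206703_at read 3717 and 3936 in the orbital layer, 2292 and 3111 in the global layer, 5424 and 5968 in lateral rectus, and 4847 and 3777 in medial rectus. Lateral rectus was highest and the global layer lowest, while medial rectus overlapped the orbital layer. The delta subunit, CHRND, also belongs to both forms of the receptor. Its probe set 207024_at read 71.4 and 126 in the orbital layer and 148 and 113 in the global layer, of which the value 148 alone lay above the floor. Lateral rectus read 476 and 466 and medial rectus 488 and 328, so that every whole muscle array lay above every layer array. In the macaque gene table, CHRND is followed directly by CHRNG as the next protein-coding gene.

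The adult epsilon subunit, CHRNE, was measured by 2 probe sets. The brighter, 215916_at, read 608 and 408 in the orbital layer, 899 and 721 in the global layer, 1241 and 949 in lateral rectus, and 1188 and 1011 in medial rectus. The orbital arrays were lowest, the global arrays came next, and the recti overlapped each other above both. The dimmer, 207274_at, read 319 and 149 in the orbital layer, 609 and 424 in the global layer, 427 and 495 in lateral rectus, and 553 and 279 in medial rectus. There the orbital layer was again below the global layer, but the global layer was not below the recti. The fetal gamma subunit, CHRNG, had the probe set 221355_at, which read 149 and 64.0 in the orbital layer, 572 and 309 in the global layer, 440 and 849 in lateral rectus, and 239 and 1083 in medial rectus. The orbital arrays were lowest, at the floor and just above it. The medial rectus arrays alone spanned more than the global and lateral arrays together, so the 3 groups above the orbital layer had no order beyond their spread.

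**Figure D1:**
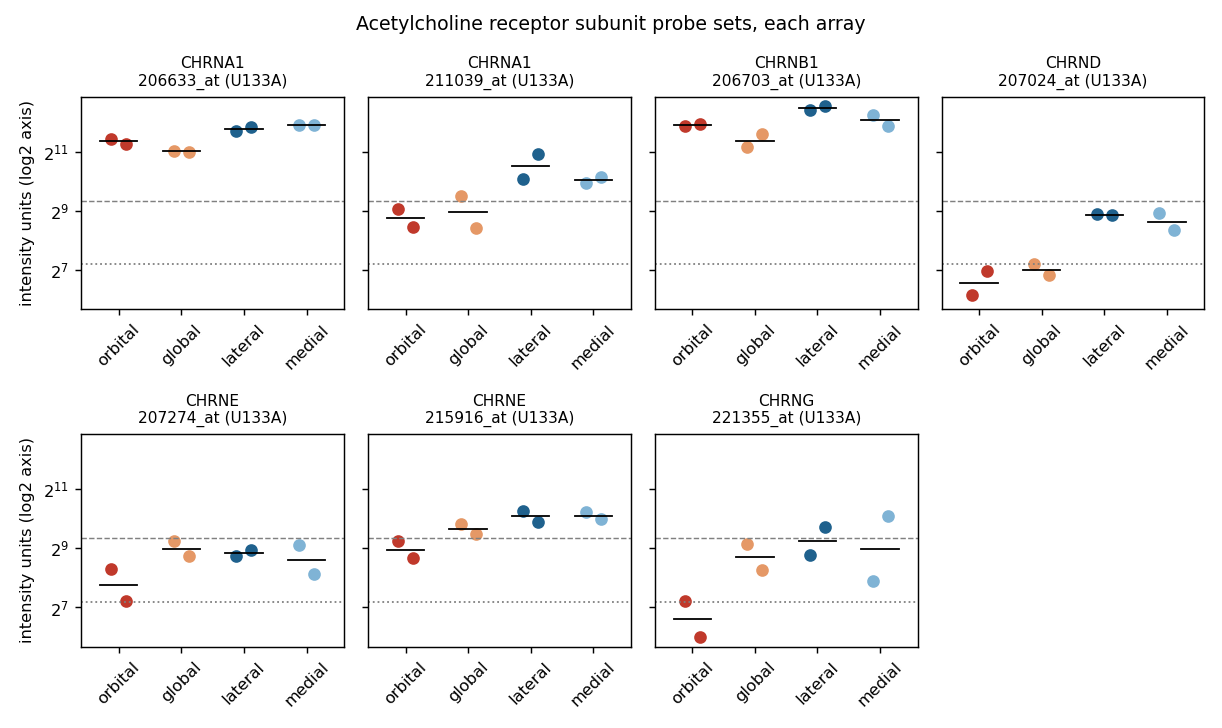
Intensities of the probe sets of the 5 receptor subunit genes on the 8 arrays of U133A, on a log axis, grouped by orbital layer, global layer, lateral rectus and medial rectus. Points are arrays, black bars geometric means of 2 arrays, the dotted line the floor of 146.487 and the dashed line the filter of 653.942. CHRNA1 and CHRNB1 lie above the filter in every group on their brighter probe sets, CHRND lies at or next to the floor in both layers, and the CHRNG points of medial rectus lie at 239 and 1083.

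Gamma and epsilon take the same place in the receptor, so their probe sets were set against each other on each array, as log2 of CHRNG 221355_at minus log2 of CHRNE 215916_at on floored values. Different probe sets bind their targets with different strength, so this value shows unequal change of the pair between samples and not which subunit was more abundant. The orbital arrays gave -2.03 and -1.48, the global arrays -0.65 and -1.22, the lateral rectus arrays -1.49 and -0.16, and the medial rectus arrays -2.31 and 0.10. Both orbital values lay below both global values, whereas the recti covered nearly the whole range. The orbital mean of -1.76 ± 0.39 (SD, n = 2) was 0.82 below the global mean of -0.94 ± 0.40, and a two-sided exact permutation test gave p = 0.333, the smallest that 2 against 2 arrays allow. Because 1 orbital array of CHRNG was at the floor, this difference depended on the floor. A floor at the 40th percentile of the table in place of the 20th raised more values to it. These were the CHRNG values of both orbital arrays and global layer replicate 2, and the CHRNE value of orbital layer replicate 2. The difference then turned to 0.45, a value that no longer holds the measured orbital gamma signal. Without orbital layer replicate 1, the array with conflicting labels, the difference at the 20th percentile floor was -0.54.

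Between the recti the same value was -1.11 ± 1.71 in medial rectus and -0.83 ± 0.94 in lateral rectus (n = 2 each; two-sided exact permutation p = 1.0). Leaving out medial rectus replicate 1 turned the difference from -0.28 to 0.93, and leaving out lateral rectus replicate 2 turned it to 0.39. In the layers together it was -1.35 ± 0.57 and in whole muscle -0.97 ± 1.14 (n = 4 each; two-sided exact permutation p = 0.6, where 0.0286 was the smallest possible). The second epsilon probe set gave values of -1.10 and -0.03 in the orbital layer, -0.09 and -0.46 in the global layer, 0.05 and 0.78 in lateral rectus, and -1.21 and 1.96 in medial rectus. With it the layers overlapped. The balance of gamma and epsilon signal was therefore not shown to differ in any of the 3 comparisons.

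**Figure D2:**
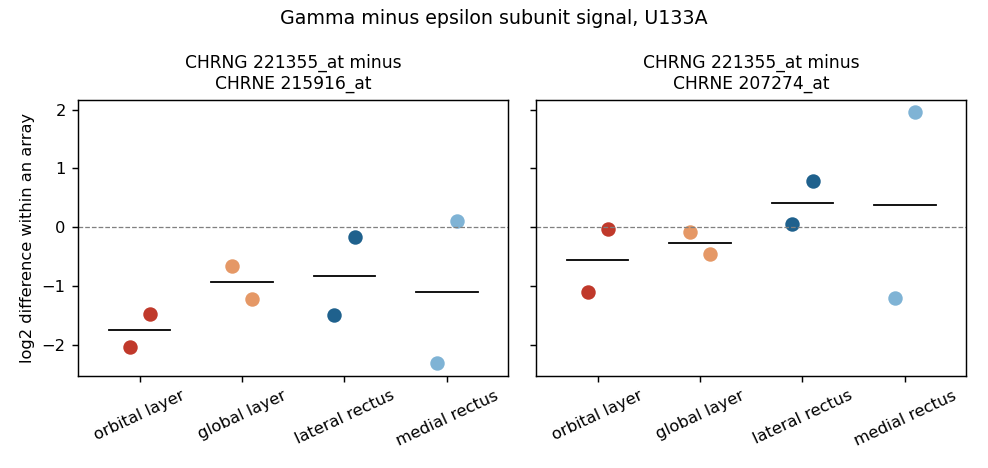
Log2 of the CHRNG intensity minus log2 of the CHRNE intensity (probe sets 221355_at and 215916_at, floored values) on each of the 8 arrays of U133A, by group. The orbital points at -2.03 and -1.48 lie below the global points at -0.65 and -1.22, and the medial rectus points lie apart at -2.31 and 0.10.

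Rapsyn, RAPSN, the scaffold that holds receptors in clusters beneath the nerve ending, ran opposite to most other members. Its probe set 211570_s_at read 2143 and 1317 in the orbital layer, 1297 and 1688 in the global layer, 900.1 and 564 in lateral rectus, and 952 and 118 in medial rectus. Every layer array lay above every whole muscle array, the layers overlapped each other, and medial rectus replicate 2 was at the floor.

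MuSK, the kinase that starts receptor clustering, had 2 probe sets on U133A. The first, 207632_at, read 464 and 291 in the orbital layer, 701 and 528 in the global layer, 1187 and 670.0 in lateral rectus, and 749 and 654 in medial rectus. The second, 207633_s_at, read 55.6 and 271 in the orbital layer, 383 and 457 in the global layer, 1165 and 987 in lateral rectus, and 1071 and 913 in medial rectus. On both, the orbital arrays were lowest and the recti overlapped each other. The global layer lay below the recti on the second probe set, whereas it overlapped them on the first. The U133B probe set 241122_s_at was at the floor on 7 of 8 arrays, with 473 on medial rectus replicate 2.

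Agrin, AGRN, the proteoglycan that triggers clustering, had 4 probe sets, and they did not rank the groups alike. The probe set 217419_x_at, whose suffix marks probes that may also bind other transcripts, read 891 and 471 in the orbital layer, 428 and 668 in the global layer, 1710.0 and 1609.9 in lateral rectus, and 1199 and 1537 in medial rectus. The layers overlapped, and all 4 of their arrays lay below all whole muscle arrays. On 212283_at the values were 605 and 358, 1048 and 602, 1438 and 2185, and 1724 and 334 in the order orbital, global, lateral, medial. Medial rectus replicate 2 was the lowest of all 8 arrays there, so whole muscle overlapped the layers. The other 2 probe sets, 212285_s_at and 217410_at, ranged from 294 to 1042 and from 206 to 972, with groups that overlapped between layers and whole muscle.

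Acetylcholinesterase, ACHE, had 3 probe sets. On 205377_s_at the orbital layer read 182 and 266, the global layer 511 and 268, lateral rectus 1543 and 2397, and medial rectus 2251 and 1619. The gap between the highest layer array, 511, and the lowest whole muscle array, 1543, was wide, and the recti overlapped. On 205378_s_at the orbital layer read 874 and 456, the global layer 1113 and 887, lateral rectus 2106 and 1273, and medial rectus 2471 and 1507. The groups again fell with the layers below whole muscle. On 210332_at the orbital layer read 232 and 355, the global layer 335 and 611, lateral rectus 271 and 221, and medial rectus 742 and 1407. On that probe set both medial rectus arrays lay above the other 6 arrays.

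Between the orbital and the global layer, no member passed the test. Among receptor subunits, CHRNA1 206633_at was 0.34 ± 0.25 higher in the orbital layer on the log2 scale (limma estimate ± SE, 2 arrays a group, adjusted p = 0.689), and CHRNB1 was 0.52 ± 0.27 higher (limma adjusted p = 0.585). RAPSN differed by 0.18 ± 0.32 (limma adjusted p = 0.885) and ACHE 205378_s_at by -0.65 ± 0.41 (limma adjusted p = 0.641). These were the 4 of 17 member probe sets whose mean log2 intensity reached the filter of 653.942 units, the median of the table. With limma, 0 of the 4 were called at an adjusted p of 0.05, against 0.409% of the 9532 probe sets tested, and 0 had an unadjusted p under 0.05. The groups did not overlap for 10 of the 17, or 58.8%, against 30.7% of all 22215 probe sets that are not controls. Of these 10, 3 were higher in the orbital layer (CHRNA1 206633_at, CHRNB1 and AGRN 212285_s_at) and 7 lower (both CHRNE probe sets, CHRNG, both MUSK probe sets of U133A, and ACHE 205377_s_at and 205378_s_at), where 12.1% and 18.6% of all probe sets did the same.

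Most members lay under that filter and have a difference without a test. CHRNG was lower in the orbital layer by -1.51 on floored log2 values, with 1 orbital array at the floor. CHRNE differed by -0.69 on 215916_at and by -1.22 on 207274_at, and MUSK by -0.73 and -1.07. When no filter was applied, 0 of 17 members were called with limma, as were 0% of all probe sets. An unadjusted p under 0.05 was found for 7.23% of all probe sets and for 2 members, namely CHRNA1 206633_at (limma adjusted p = 0.611) and CHRNG (limma adjusted p = 0.617). The median was -0.65 over the 17 members and 0.00 over all probe sets, whereas it was 0.26 over the 4 members tested and -0.04 over all probe sets tested. Without orbital layer replicate 1, CHRNA1 206633_at differed by 0.27, CHRNB1 by 0.56 and ACHE 205378_s_at by -1.12, with 0 members called, and RAPSN turned to -0.17. Of those under the filter, CHRNG then differed by -1.52, CHRNE by -0.98 and -1.77, MUSK by -1.06 and -0.63, and AGRN 217419_x_at turned from 0.28 to -0.18. The median was -0.51 over all 17 members, most of them under the filter. Over tested probe sets alone the table median was -0.05, so these medians are not of like sets. With 1 orbital array left, 12 of 17 members, or 70.6%, did not overlap, against 67.3% of all probe sets. These shares were counted on intensities before the floor, unlike those given above. The ACTB ratio given above was higher on the orbital arrays in the same comparison, whereas the GAPDH ratio overlapped between the layers.

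Between medial and lateral rectus, no member passed either. CHRNA1 206633_at was 0.14 ± 0.24 higher in medial rectus (log2, limma ± SE, 2 arrays a group, adjusted p = 0.999), CHRNB1 differed by -0.41 ± 0.24, CHRNE 215916_at by 0.01 ± 0.41, and AGRN 212283_at by -1.22 ± 0.71. That AGRN value was -0.04 without medial rectus replicate 2 and -2.41 without medial rectus replicate 1. MUSK differed by -0.35 ± 0.56 and -0.12 ± 0.42, and ACHE by -0.01 ± 0.35 and 0.24 ± 0.39 on its 2 brighter probe sets. In this pair 11 of 17 probe sets were kept. With limma, 0 were called, with 0 under an unadjusted p of 0.05, as were 0% of the 11907 tested, of which 333 had an unadjusted p under 0.05. Groups did not overlap for 4 of 17, or 23.5%, against 26.5% of all probe sets. Of these, CHRNA1 206633_at and ACHE 210332_at were higher and CHRNB1 and AGRN 217419_x_at lower in medial rectus, where 14.7% and 11.9% of all probe sets did the same. The median was -0.24 over the 17 members and 0.00 over all probe sets, and -0.29 over the 11 members tested and 0.00 over all probe sets tested. ACHE 210332_at, under the filter, was 4.18-fold higher in medial rectus, and without a filter its limma unadjusted p was 0.0343 and its adjusted p 0.959.

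Between the layers and whole muscle, receptor and endplate transcripts were mostly lower in the layers. ACHE 205377_s_at fell most among the members tested, from 1953 ± 434 units in whole muscle to 307 ± 142 in the layers (SD, n = 4), a difference of -2.75 ± 0.36 (log2, SE) or 6.71-fold (limma adjusted p = 0.00016). CHRNA1, CHRNB1 and CHRNE fell by smaller amounts, and RAPSN rose 3.06-fold. Per the labels, RNA of the layers alone was amplified with T7 polymerase, so that amplification and sampling of the layers cannot be told apart in any of these values. In such bulk samples, fewer cells of a type and less RNA per cell cannot be told apart either.

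Of the 17 probe sets, 10 were kept, from 6 genes, since none of CHRND, CHRNG and MUSK reached the filter. Of these 10, 8 were called, 7 lower and 1 higher. Of the 7, ACHE 205377_s_at, CHRNA1 211039_at, AGRN 217419_x_at and CHRNE 215916_at had layer means of log2 values under the filter. They were tested through their values in whole muscle, which favours calls of this direction. For CHRNE the linear layer mean, 659 units, was just above the filter. RAPSN, the 1 called higher, was likewise tested through its values in the layers. The background was high, with 48.7% of the 10533 tested probe sets called, 30.1% lower and 18.6% higher. The median difference was -0.78 over the 17 members and -0.29 over all probe sets, and -0.86 over the 10 members tested and -0.18 over all probe sets tested. Layers and whole muscle did not overlap for 9 of the 17, or 52.9% (8 lower and 1 higher), against 31.4% of all probe sets (22.2% lower and 9.23% higher). With quantile normalization the table median moved from -0.18 to 0.00 and lower calls went from 3168 of 5132 to 2052 of 4128. Of the 8 members, 5 were then called, 4 lower and 1 higher.

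Among the subunits, CHRNA1 206633_at fell from 3655 ± 233 units in whole muscle to 2344 ± 336 in the layers (SD, n = 4), a difference of -0.65 ± 0.17 (limma adjusted p = 0.00788), or -0.47 relative to the table median. It was called under all 16 alternatives, with limma adjusted p-values of 0.00599 to 0.0237. Its other probe set, 211039_at, fell from 1296 ± 442 to 491 ± 180 units, by -1.42 ± 0.35 (limma adjusted p = 0.00564), and missed the threshold after quantile normalization (-0.83, limma adjusted p = 0.0685). CHRNB1 differed by -0.63 ± 0.21 (limma adjusted p = 0.0298), or -0.45 relative to the table median, although medial rectus replicate 2, at 3777, lay below an orbital array at 3936. The call of CHRNB1 ended in 6 of 16 alternatives. Those were without a filter and without either global layer array, either lateral rectus array or medial rectus replicate 1, where limma adjusted p-values were 0.0546 to 0.0879.

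The epsilon subunit, CHRNE, read 659 ± 206 units in the layers against 1097 ± 139 in whole muscle (215916_at, SD, n = 4), a difference of -0.78 ± 0.30 at a limma adjusted p of 0.0457. That call ended in 9 of 15 alternatives. Leaving out any array other than global layer replicate 1 gave limma adjusted p-values of 0.0571 to 0.121, and quantile normalization gave -0.18 (limma adjusted p = 0.629). Under the filter, CHRND differed by -1.56 on floored values, with 3 of 4 layer arrays at the floor, and in the fit without a filter it was called (limma adjusted p = 0.000689). CHRNG differed by -1.16, with 273 ± 223 units in the layers and 653 ± 383 in whole muscle, and was not called in that fit (limma adjusted p = 0.214). The second CHRNE probe set differed by -0.35 (limma adjusted p = 0.6 without a filter).

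RAPSN rose from 633 ± 385 units in whole muscle to 1611 ± 398 in the layers (SD, n = 4), by 1.61 ± 0.51 (limma adjusted p = 0.0211), or 1.79 relative to the table median. Its whole muscle mean was under the filter, so it was tested through its layer values, which favours calls of this direction. The call ended without a filter (limma adjusted p = 0.0863) and without orbital layer replicate 1 (1.46, limma adjusted p = 0.0586). Leaving out medial rectus replicate 2, the array at the floor, reduced the difference to 1.01, still past the threshold (limma adjusted p = 0.0145). MUSK 207633_s_at was under the filter and differed by -1.84 on floored values, with 1 layer array at the floor, and was called in the fit without a filter (limma adjusted p = 0.0109). Without that array, orbital layer replicate 1, it was tested and called (-1.51, limma adjusted p = 0.00704). MUSK 207632_at differed by -0.74 and was not called there (limma adjusted p = 0.145).

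AGRN fell on 217419_x_at, from 1514 ± 222 units in whole muscle to 615 ± 212 in the layers, by -1.35 ± 0.29 (limma adjusted p = 0.00263), and this call held in all 15 alternatives that kept it. AGRN 212283_at differed by -0.93 ± 0.54 (limma adjusted p = 0.171), and by -1.53 without medial rectus replicate 2 (limma adjusted p = 0.00607). AGRN 212285_s_at differed by -0.51 ± 0.39 (limma adjusted p = 0.294) and by 0.09 after quantile normalization. ACHE 205378_s_at fell by 1.17 on the log2 scale, with an SE of 0.31 (limma adjusted p = 0.00911), and missed the threshold after quantile normalization (-0.70, limma adjusted p = 0.087). ACHE 205377_s_at was called in all 13 alternatives that kept it, with differences of -3.03 to -2.10, and was not tested without lateral rectus replicate 2 or medial rectus replicate 1. The dim ACHE 210332_at differed by -0.47 (limma adjusted p = 0.62 without a filter).

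Without a filter, 7 of 17 members were called with limma, all lower, against 29.6% of the 22215 probe sets called and 20.9% called lower. Of these 7, 5 were among the 8 called with the filter, and the others were CHRND and MUSK 207633_s_at. Leaving out lateral rectus replicate 2 or medial rectus replicate 1 gave 5 called members in each case, of 9 tested, and ACHE 205377_s_at was then under the filter. Of all tested probe sets, 4517 of 10402 and 4597 of 10397 were called in these cases, in that order. Without orbital layer replicate 1, 7 of 11 tested members were called, against 4718 of 10717 tested probe sets. The median was then -0.76 over all 17 members, tested or not. Over tested probe sets alone the table median was -0.21, so these medians are not of like sets. Counted on intensities before the floor, unlike the shares given earlier, 9 of 17 members did not overlap (52.9%, against 40.5% of all probe sets). CHRNA1 206633_at then differed by -0.73, CHRNA1 211039_at by -1.48, CHRNB1 by -0.70, ACHE by -2.53 and -1.21 and AGRN 217419_x_at by -1.55, all still called.

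**Figure D3:**
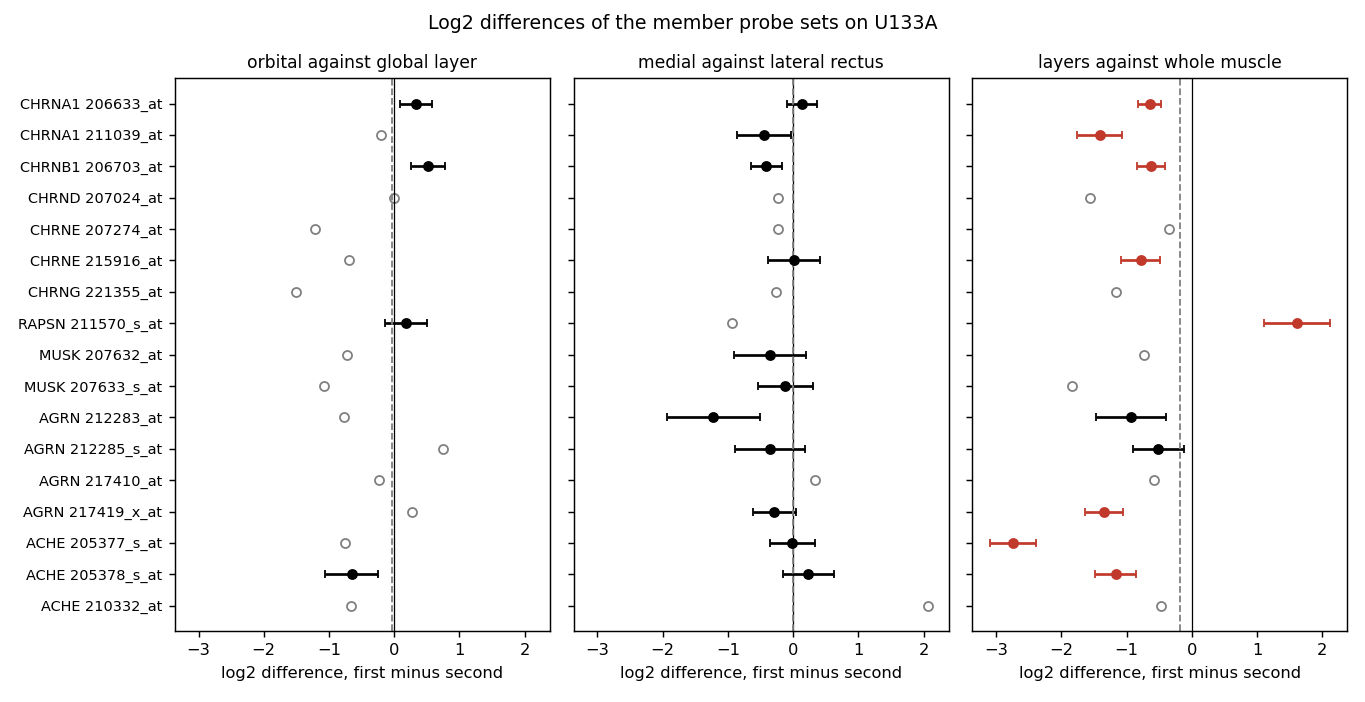
Log2 differences of the member probe sets of U133A in the 3 comparisons (orbital minus global layer, medial minus lateral rectus, layers minus whole muscle), with SE bars where tested by limma. Red points passed an adjusted p of 0.05, black points were tested and did not, open grey points were under the filter, and dashed lines are table medians. The red points all lie in the comparison of layers with whole muscle, with 7 below 0 and RAPSN at 1.61.

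Other genes of the synapse were taken as lists, each gene by its brightest probe set on an array type. Of 34 other synaptic genes, 28 had a probe set on U133A and 22 were kept. Of these 22, 8 were called higher and 5 lower in the layers against whole muscle, with a median of 0.34. Of all tested probe sets, 18.6% were called higher and 30.1% lower. DTNA, alpha-dystrobrevin, rose by 1.71 (limma adjusted p = 0.000101), while its U133B probe set differed by 0.46 (limma adjusted p = 0.222) and by -0.22 after quantile normalization. SNTB2, a syntrophin, rose by 0.92 (limma adjusted p = 0.0045). LAMB2, the synaptic laminin chain, rose by 0.93 (limma adjusted p = 0.0225) and SYNE1, a nuclear anchoring protein, by 0.89 (limma adjusted p = 0.0104). LAMA4, another laminin chain, rose by 0.57 (limma adjusted p = 0.0474), ETV5, a transcription factor of synaptic nuclei, by 0.67 (limma adjusted p = 0.0136), and DPAGT1, an enzyme of protein glycosylation, fell by 1.07 (limma adjusted p = 0.0186). After quantile normalization LAMA4 was called, and ETV5 (limma adjusted p = 0.0602) and DPAGT1 (limma adjusted p = 0.276) were not. The neuregulin genes were split. NRG1 itself fell by 1.28, ERBB2 by 0.73 and ERBB3 by 0.75, whereas ERBB4, another neuregulin receptor, rose by 0.94 (limma adjusted p between 0.00387 and 0.0124 for these 4). After quantile normalization ERBB4 alone of the 4 was called (limma adjusted p = 0.0218), with 0.0737 for NRG1, 0.229 for ERBB2 and 0.122 for ERBB3. NRG1 and DPAGT1 had layer means of 638 and 490 units, under the filter, so they were tested through their values in whole muscle. LRP4, the agrin receptor, differed by 0.45 (limma adjusted p = 0.105), and DOK7, the MuSK adaptor measured on U133B, by -0.11 (limma adjusted p = 0.718).

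Of 8 kept genes that respond to activity or denervation, 2 were called higher and 2 lower, with a median of -0.02, against 18.6% and 30.1% of all tested probe sets. MYOG, the myogenic factor that drives receptor genes after denervation, fell by 2.03 (limma adjusted p = 0.00249), while HDAC4, a deacetylase of the denervation response, rose by 1.03 (limma adjusted p = 0.035) and GADD45A by 1.54 (limma adjusted p = 0.000773). NCAM1, an adhesion molecule of immature and denervated fibres, fell by 1.05 on U133A (limma adjusted p = 0.00563) and rose by 1.21 on U133B (limma adjusted p = 0.0031). UTRN, utrophin, which sits at the endplate, also went both ways, falling by 1.10 on U133A (limma adjusted p = 0.00372) and rising by 1.99 on U133B (limma adjusted p = 3.71e-05). The 2 array types carry different probe sets of these genes, so neither has a settled direction. Of these 4 values, UTRN on U133A and NCAM1 on U133B missed the threshold after quantile normalization (limma adjusted p = 0.0923 and 0.154). Layer means of MYOG, 424 units, and of UTRN on U133A, 641 units, were under the filter. Both were tested through their values in whole muscle, which favours calls of this direction.

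Of 4 kept neuronal nicotinic subunits, 3 fell, namely CHRNA3 by 2.07, CHRNA6 by 1.59 and CHRNB3 by 1.67 (limma adjusted p between 0.000207 and 0.00484), with a median of -1.63, where 30.1% of all tested probe sets were called lower. Their layer means were 529, 649.7 and 455 units, under the filter, so they were tested through their values in whole muscle. Of 4 kept nerve terminal genes, SNAP25, a vesicle fusion protein, fell by 0.65 (limma adjusted p = 0.0203, and 0.186 after quantile normalization), with a median of -0.18. Of 2 kept muscarinic receptors, 0 were called with limma. On U133B, where 42.8% of the 10547 tested probe sets were called (20.5% higher and 22.3% lower), 3 of 11 kept other synaptic genes rose (UTRN, SNTB2 and GFPT1, the last by 1.53 at a limma adjusted p of 0.0131) and 1 fell (ALG14, by 1.21 at a limma adjusted p of 0.00448). ALG14 is an enzyme of protein glycosylation, and GFPT1 makes a precursor for it. SNTB2 there missed the threshold after quantile normalization (limma adjusted p = 0.0739). Both kept genes of the activity list, HDAC4 and NCAM1, rose, and neither was called after quantile normalization (limma adjusted p = 0.421 for HDAC4). Over the 5 lists, 21 of 40 kept genes were called on U133A and 6 of 14 on U133B, against 48.7% and 42.8% of tested probe sets. Quantile normalization called 14 of the 40 and 3 of the 14, against 4128 of 10528 and 3306 of 10518 tested probe sets. Of the genes called with it, 13 and 3 were the same. The difference of PRKAR1A, a regulatory subunit of protein kinase A, turned from 0.52 to -0.03. Without orbital layer replicate 1, 20 of the 40 were called on U133A, of which 19 were the same. Of all tested probe sets, 4718 of 10717 were called there. LAMA4 (limma adjusted p = 0.0726) and SNAP25 (limma adjusted p = 0.057) then missed the threshold.

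Between the layers, and between the recti, 0 genes of any list were called with limma on either array type, against 0.409% of tested probe sets between the layers on U133A and 0.021% on U133B. At an unadjusted p under 0.05 there were 5 of 32 genes between the layers on U133A, against 9.49% of tested probe sets, and 2 of 15 on U133B, against 7.76%. Between the recti there were 3 of 43 on U133A, against 2.80%, and 0 of 15 on U133B, against 3.43%. The smallest p among list genes in the layers belonged to SYT2, a synaptotagmin of motor nerve endings, which differed by -1.84 in the orbital against the global layer (limma adjusted p = 0.106, unadjusted 0.000776). Its orbital mean of 481 units was under the filter, so it was tested through its global layer mean of 1775 units. Without orbital layer replicate 1, which leaves 1 orbital array, SYT2 differed by -1.91. MYF6, a myogenic factor, differed by 1.18 (limma adjusted p = 0.384) and GADD45A by -0.78 (limma adjusted p = 0.375), and by 1.01 and -0.71 without that array. Between the recti, CTTN, cortactin, differed by -1.18 in medial rectus and SCN4A, the muscle sodium channel, by -0.93 (limma adjusted p = 0.999 for both).

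**Figure D4:**
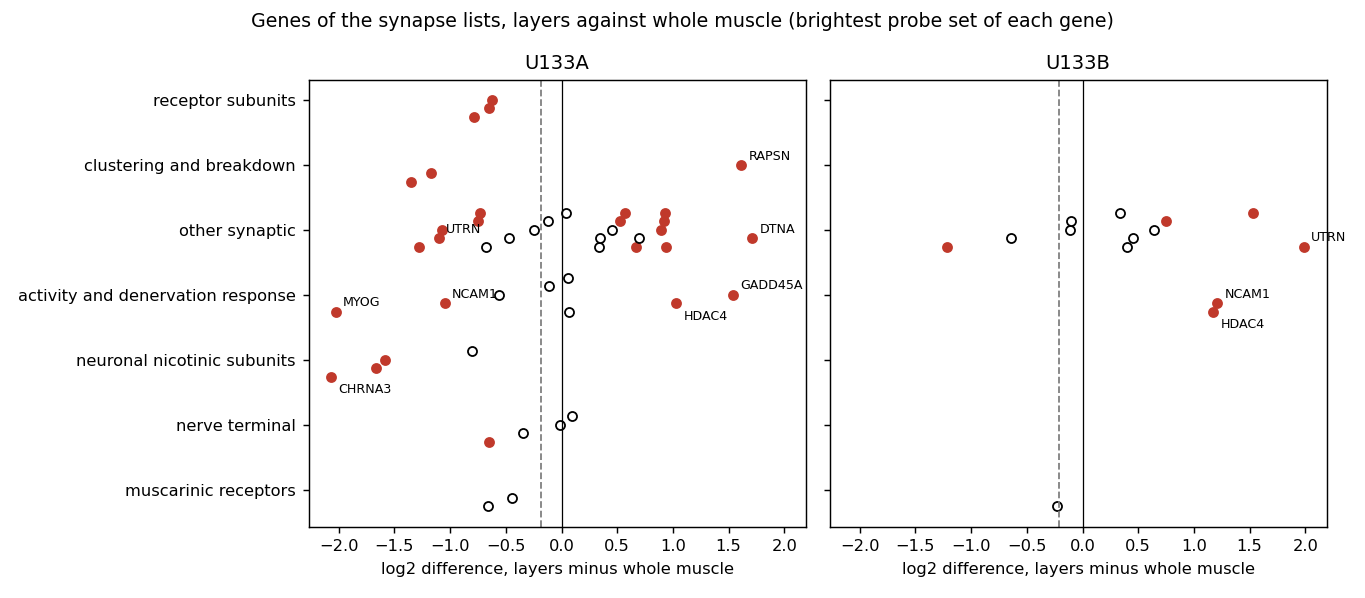
Log2 differences between layers and whole muscle for the kept genes of the member lists and of 5 other synapse lists, on U133A and U133B. Filled red points passed a limma adjusted p of 0.05, open points did not, and dashed lines are the table medians of -0.18 and -0.21. UTRN and NCAM1 lie on opposite sides of 0 on the 2 array types.

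Likeness to a member was measured as Pearson's r of log2 intensities over the 8 arrays of U133A, among 9300 candidate probe sets. The arrays share the split into amplified layers and whole muscle, so these values are a description. Most like CHRNG 221355_at were MLLT11 (r = 0.956), LAD1 (r = 0.956) and ING1 (r = 0.952). Nearest to CHRNE 215916_at came GYG1 (r = 0.997), OPN3 (r = 0.982) and PAPSS2 (r = 0.975), and nearest to CHRNA1 206633_at came SNX27 (r = 0.989), TAOK2 (r = 0.985) and INPP4A (r = 0.985).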

How the data were processed

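The values are linear intensities that the authors deposited, already scaled, for each array. After trimming 2% of values at either end, array means were 1500.2 to 1500.7 units. Macaque RNA was hybridised to human arrays, after T7 amplification in the case of the layers, per the labels. The summary software and detection calls are not given in the sources used here.

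Members, lists and tests were chosen with earlier results of these data known. Arrays were grouped by title. Titles number the layer arrays and 4 of 8 rectus arrays, and the others were numbered in accession order. Arrays were brought to the same 2% trimmed mean, values under the pooled 20th percentile were set to that percentile, and logarithms to base 2 were used. Probe sets were kept when the mean of their log2 values reached the pooled median of the table (653.942 units on U133A, 802.702 on U133B). Control probe sets (68 per table) were not tested. The tables were analysed separately with limma 3.58.1 in R 4.3.3 (intensity trend, 2 groups, two-sided), with Benjamini-Hochberg adjustment over all kept probe sets and a threshold of 0.05. Python 3.11.15, pandas 2.3.3 and matplotlib 3.10.9 made the permutation tests and figures.

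The fit was tested on simulated data with known changes. When variances followed limma's fitted prior, which is the fit's own assumption, the share of false calls was close to the threshold. With the moderated variances of the data it was somewhat above the threshold between the 2 layers on both array types and between the recti on U133A. An earlier form of this check, with an abrupt step in variance at the filter, failed its own limit on false calls for medial against lateral rectus on U133B and was replaced by the one above. The step in variance was also run again with more draws, and the share of false calls could still exceed the threshold.

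All members are named with every probe set. Of the other lists, genes past the threshold and some with the smallest p were named. All 9 member symbols matched the macaque RefSeq gene table, which gave the order of neighbouring genes; no coordinates or sequences were used here. A lone symbol was given for 19071 of 22283 probe sets on U133A and 15432 of 22645 on U133B.

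Deviations of same-numbered layer arrays correlated at 0.256 on U133A and 0.132 on U133B over 2 pairs, and the labels do not say what a number marks, so arrays were not paired. Alternatives were quantile normalization, floors at the 5th and 40th percentile, no filter at all, filtering at the 75th percentile, no variance trend, all 4 groups in one fit, the replicate number as a term for the layers, all probe sets of CHRNG and CHRNE, each array left out in turn, a filter on the mean of linear values, and, for the other lists, quantile normalization and leaving out orbital layer replicate 1 of U133A, the last 3 added after seeing the data. The filter on linear values was the one run first. The filter on log2 values replaced it as the main one after it was seen to give the counts of earlier results, and 8 of 10 tested members were then called between layers and whole muscle in place of 9 of 12.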

Additional observations from a re-analysis of the deposited data

Results flagged for a closer look

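Every member probe set was looked at in the 4 layer arrays and in the 4 whole muscle arrays, on floored log2 values. Some values lay far from the other 3, by a rule that chance alone meets in about 1 of 20 groups. That rate does not hold where 3 arrays share the floor, since any value above it then meets the rule. This was so for MUSK 241122_s_at in whole muscle and for CHRND in the layers. The MUSK probe set 241122_s_at on U133B read 473.2 on medial rectus replicate 2, while the other whole muscle arrays read 61.31 to 202.4, all at the floor. On the same tissue and replicate number of U133A, CHRND read 327.5 against 465.6 to 488.1, and AGRN 212285_s_at read 542.9 against 948.9 to 1042. AGRN 212285_s_at also read 294.2 on global layer replicate 2, against 718.9 to 780.1 on the other layer arrays. CHRND read 148.1 on global layer replicate 1, just above the floor, against 71.39 to 126.4 on the other layer arrays, all of them at the floor.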

How the results depend on the processing

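Of the counts of called members, that of layers against whole muscle on U133A was above 0 and moved by over 1.5 times in 4 of 16 alternatives. Between the layers and between the recti on U133A it was 0 in all 13 and 12 alternatives, and on U133B members were tested in 1 alternative of each comparison, without a filter. In layers against whole muscle on U133A, 8 members became 5 with quantile normalization and 2 when filtering at the 75th percentile, which left only 2 members tested; leaving out each array in turn gave 5 to 8. Gamma minus epsilon turned sign in 5 of 29 alternatives. With the floor at the 40th percentile it became 0.45 for orbital against global layer, 0.14 for medial against lateral rectus and 0.28 for layers against whole muscle. Leaving out each array in turn gave -1.10 to -0.53, -1.49 to 0.93 and -0.83 to -0.02 in that order; the medial against lateral difference was 0.39 without lateral rectus replicate 2 and 0.93 without medial rectus replicate 1. Of tested probe sets, 2 of 50 alternatives between the layers, 10 of 124 between the recti and 1 of 150 between layers and whole muscle turned sign, none of them at a called value, and 19 of these last 150 lost a call. Between the layers, RAPSN turned to -0.0064 without global layer replicate 1 and to -0.17 without orbital layer replicate 1 (leaving out each array, -0.17 to 0.53). Between the recti, leaving out each array moved ACHE 205377_s_at over -0.33 to 0.31 (0.31 without lateral rectus replicate 2, 0.23 without medial rectus replicate 2) and ACHE 205378_s_at over -0.13 to 0.60 (-0.13 without lateral rectus replicate 2, -0.12 without medial rectus replicate 1). MUSK ran over -0.76 to 0.062 on 207632_at and -0.24 to 0.0021 on 207633_s_at, above 0 without lateral rectus replicate 1. AGRN 212285_s_at ran over -0.83 to 0.11, above 0 without medial rectus replicate 2. CHRNE 215916_at ran over -0.18 to 0.21, with -0.18 without lateral rectus replicate 2 and -0.10 without medial rectus replicate 1, and gave -0.052 with quantile normalization. Between layers and whole muscle, AGRN 212285_s_at turned to 0.093 with quantile normalization. On U133B, genes of the other lists called between layers and whole muscle went from 6 to 3 with quantile normalization, an alternative added after seeing the data. The cause of these changes was not tested.

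With the replicate number as a block between the layers, 0 of 4 tested members were called with limma on U133A, and none was tested on U133B. Gamma minus epsilon was -0.82, a value that such pairing cannot change (exact sign-flip p = 0.5, the smallest that 2 pairs allow). Over the whole table, the block moved calls from 39 to 92 on U133A and from 2 to 26 on U133B. No paired analysis was possible for the other comparisons because the rectus arrays are not all numbered by title. Low signal limits CHRND in both layers and CHRNG in the orbital layer, which lay at or near the floor, and CHRND, CHRNG and MUSK were under the filter in layers against whole muscle.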

Other observations

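On U133A, medial rectus replicate 2 was the lowest of the 8 arrays for RAPSN, at 118, and for AGRN 212283_at, at 334, and the highest for CHRNG, at 1083, and for ACHE 210332_at, at 1407. Medial rectus replicate 1 read 952, 1724, 239 and 742 for the same probe sets. These arrays were chosen for mention after their values were seen.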
